A study of Mus musculus with 2 samples.

Results

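The genes described here are 36 mouse genes whose enzymes make, convert and recycle nucleotides. They were chosen by name for their role, with earlier results of these data known, and all 36 were found among the 25749 genes listed for each of 2 RNA-seq libraries. Both libraries were made from the mouse embryonic stem cell line E14.1. One genotype was WT AHCY, the unaltered enzyme, and the other was T136A AHCY, in which alanine replaces a threonine of S-adenosylhomocysteine hydrolase. How the altered form was introduced, the number of clones and the culture medium are not known from the labels. With a single library for WT and a single one for T136A there is no replicate spread and no p-value is given, and every "higher" or "lower" below compares these libraries and not the genotypes.

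Cells build purine rings atom by atom on phosphoribosyl pyrophosphate (PRPP), an activated sugar, until inosine monophosphate (IMP) is formed, from which AMP and GMP are made. Pyrimidines take the other order: the ring is assembled first and is then joined to PRPP. Ribonucleotide reductase turns ribonucleotides into the deoxyribonucleotides of DNA, and salvage enzymes reattach free bases or phosphorylate free nucleosides. Rapidly dividing cells such as embryonic stem cells draw on all of these routes, and the AHCY reaction itself releases adenosine, which enters the purine pool.

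The level of a gene is given in RPKM, a read number divided by the length of the gene's exons and by sequencing depth, which allows levels to be compared between genes. The implied totals were 17506154 reads for WT and 18396840 for T136A. The cells' defining markers were present: the 8 embryonic stem cell markers listed summed to 4123 RPKM in WT and 3874 in T136A. Dppa5a alone accounted for 2182 and 1969 of these sums. Zfp42 (252 and 397 RPKM) and Tdgf1 (161 and 263) were higher in T136A. The other 6 were lower, among them Pou5f1 at 271 and 223. Of 8 fibroblast feeder markers 5 were listed, and these summed to 13.9 RPKM in WT and 25.8 in T136A, nearly all of it Vim (10.9 and 19.9) and Thy1, while Col1a1 was at 0.470 and 0.530, Col1a2 at 0.0368 and 0.0525, and Postn at 0 and 0.00625. The part of such cells in the results below was not tested.

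As a whole the nucleotide genes stood at nearly the same level in both libraries. Their summed level was 2036 RPKM in WT and 2042 in T136A. Of the 36 genes, 34 reached 1 RPKM in at least 1 library and are called measured, and Hprt and Nme2 did not. Genes were counted on the log2 ratio of T136A to WT after 1 RPKM was added to each value. The median of this ratio over the 34 genes was 0.02, beside -0.03 over all 12320 measured genes. Of the 34, 19 were above 0 and 15 below, beside 5841 above and 6479 below among all measured genes. The synthase Prps2 was the 1 gene at least 2-fold higher in T136A and 0 were at least 2-fold lower, where the shares among all measured genes were 3.13% and 3.1%. At a fold of 1.5, 3 genes were higher (Prps2, Adsl and Impdh1) and 2 were lower (Adssl1 and Dtymk). That is 8.82% and 5.88% of the 34, beside 10.4% and 11.3% of all measured genes, and shares this close to the background are no result about the nucleotide genes. The order of the higher shares also turned with the scaling of the libraries: 11.8% of the 34 beside 11.1% with TMM scaling, 14.7% beside 12.1% with median-of-ratios, 17.6% beside 15.1% with upper-quartile and 11.8% beside 11% with quantile normalization. The other 29, or 85.3%, were within 1.5-fold, as were 78.3% of all measured genes. Because bulk RNA was sequenced, fewer cells that express a gene and less of its RNA in each cell cannot be told apart.

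**Figure D1:**
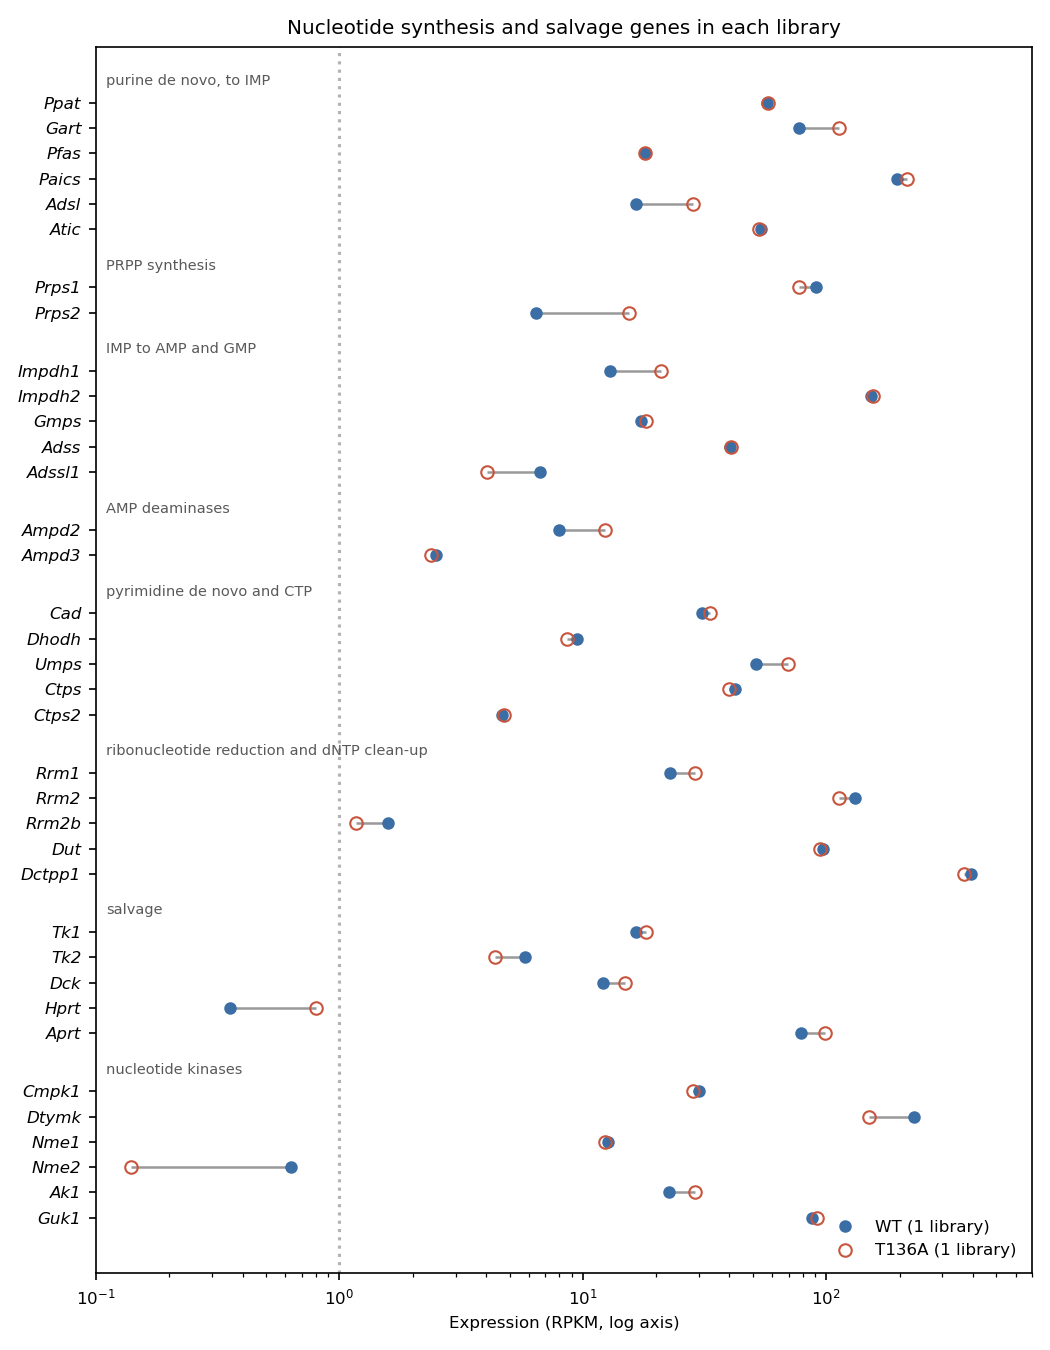
Expression of the 36 genes in RPKM on a log axis, grouped by role, with filled circles for the WT library, open circles for the T136A library, a grey line joining both, and a dotted line at 1 RPKM. Many circle pairs touch. Among those visibly apart are Prps2, Adsl, Impdh1, Adssl1, Ampd2 and Dtymk. Hprt and Nme2 are also apart and lie to the left of the dotted line in both libraries.

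The 250 bases before the RefSeq start of the 5 genes past 1.5-fold are shown with those of Prps1, the close relative of Prps2, because the differences described below turn on these genes. They come from RefSeq on GRCm38.p6 and are written 5′ to 3′ on the gene's own strand. Prps2 is at chrX:167382750-167382999 (minus strand), Prps1 at chrX:140456353-140456602 (plus), Adsl at chr15:80948240-80948489 (plus), Impdh1, at the farther upstream of its starts, at chr6:29216365-29216614 (minus), Adssl1 at chr12:112619797-112620046 (plus) and Dtymk at chr1:93801935-93802184 (minus). Capitals mark matches on either strand to the motifs searched: CACGTG, the E-box read by MYC, TTTCCCGC, an E2F-type site, CCAAT, the box read by NF-Y, TGATGNAA, an ATF4-type site, and CGGAAG, an ETS-type site.
Prps2: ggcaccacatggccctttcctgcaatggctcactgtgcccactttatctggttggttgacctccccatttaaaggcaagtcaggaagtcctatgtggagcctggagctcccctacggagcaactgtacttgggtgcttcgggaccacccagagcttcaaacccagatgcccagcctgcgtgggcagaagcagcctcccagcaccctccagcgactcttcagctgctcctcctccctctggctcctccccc
Prps1: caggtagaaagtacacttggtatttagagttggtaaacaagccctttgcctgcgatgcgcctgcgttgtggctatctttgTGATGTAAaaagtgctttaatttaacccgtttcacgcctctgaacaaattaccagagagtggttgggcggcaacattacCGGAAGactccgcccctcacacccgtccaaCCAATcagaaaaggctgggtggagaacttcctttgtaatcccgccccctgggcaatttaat
Adsl: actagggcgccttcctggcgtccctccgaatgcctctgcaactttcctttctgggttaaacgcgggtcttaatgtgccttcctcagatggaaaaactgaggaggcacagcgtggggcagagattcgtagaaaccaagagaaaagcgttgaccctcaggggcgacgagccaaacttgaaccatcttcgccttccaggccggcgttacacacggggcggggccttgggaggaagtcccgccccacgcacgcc
Impdh1: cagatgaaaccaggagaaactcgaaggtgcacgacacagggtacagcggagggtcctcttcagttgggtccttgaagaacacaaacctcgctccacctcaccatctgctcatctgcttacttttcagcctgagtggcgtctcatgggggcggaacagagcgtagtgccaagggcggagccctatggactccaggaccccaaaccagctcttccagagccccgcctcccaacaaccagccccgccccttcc
Adssl1: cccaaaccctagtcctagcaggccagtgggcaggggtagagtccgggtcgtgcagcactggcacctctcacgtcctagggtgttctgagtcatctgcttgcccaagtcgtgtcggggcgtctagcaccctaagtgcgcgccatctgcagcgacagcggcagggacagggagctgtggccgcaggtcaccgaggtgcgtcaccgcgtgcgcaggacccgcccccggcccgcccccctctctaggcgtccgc
Dtymk: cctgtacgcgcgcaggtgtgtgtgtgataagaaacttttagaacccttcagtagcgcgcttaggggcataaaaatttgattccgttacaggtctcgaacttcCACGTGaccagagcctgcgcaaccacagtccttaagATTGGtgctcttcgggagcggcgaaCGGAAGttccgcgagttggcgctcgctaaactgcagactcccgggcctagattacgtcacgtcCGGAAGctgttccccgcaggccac

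In these stretches, Dtymk held the CACGTG 148 bases before its start, a CCAAT 112 before it, and CGGAAG at 87 and 24 bases before it. Prps1 held TGATGNAA, CGGAAG and CCAAT at 170, 91 and 61 bases before its start. No match lay whole within the 250 bases of Prps2, Adsl, Impdh1 or Adssl1. Matches across or after the start, which the stretches do not show in full, were TTTCCCGC in Prps2, CGGAAG in Adsl and a further CGGAAG in Dtymk. Windows of 300 bases, reaching 50 past the start, were held for 33 of the 36 genes. CACGTG was found in 6 of the 33 (Paics, Atic, Impdh2, Ampd3, Dtymk and Nme1), or 18.2%, beside 12.3% of 8904 measured genes with a window and 8.09% of all 27025. CGGAAG was found in 14 of the 33, or 42.4%, beside 37.0% of the measured genes, and TGATGNAA in 1, beside 2.56%. TTTCCCGC was in 2 of the 33 (Ppat and Prps2), beside 2.67% of the measured genes, and CCAAT in 12, or 36.4%, beside 43.8%. None of the 5 motifs contains another. A match describes letters in a window and says nothing of binding.

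PRPP synthetases make the sugar donor on which both de novo routes and base salvage depend. Prps2 (ENSMUSG00000025742; GRCm38 chromosome X, minus strand) was at 6.43 RPKM in WT and 15.4 in T136A, from 436 and 1100 reads. That is 2.40-fold higher (95% counting interval 2.15 to 2.69), and the log2 ratio of 1.15 was the highest of all 34 genes. The related Prps1, the far more abundant of the pair, went the other way, with 90.9 RPKM in WT and 77.6 in T136A, 1.17-fold lower (1.11 to 1.23). Prps2 therefore made up 6.61% of the pair's summed level in WT and 16.6% in T136A, while that sum was 97.3 and 93.0 RPKM. Prps1 shares 9.93% of its 50-base stretches with Prps1l3, so reads of this pair may be split between them, whereas Prps2 shares 0.105% of its stretches with other annotated transcripts. Prps1l3 was at 16.7 and 25.4 RPKM. Of the synthetase-associated proteins, which bind the enzyme and restrain it, Prpsap1 was at 18.5 and 23.0 RPKM and Prpsap2 at 66.7 and 59.5.

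The 6 enzymes that lead to IMP did not move as a block. The committing enzyme Ppat was at 57.3 RPKM in WT and 57.6 in T136A, a ratio of 1.00 (0.964 to 1.05). Pfas, which adds an amine from glutamine, was at 18.1 and 18.1, and Atic, which closes the ring, at 54.1 and 53.2. For these 3 genes the counting interval held a ratio of 1. Paics, the most abundant of the 6, was slightly higher in T136A, at 195 and 215 RPKM (1.10-fold, 1.07 to 1.13). Gart, a trifunctional enzyme that uses a formyl group carried by folate, was at 77.5 and 112 RPKM, a ratio of 1.45. Adsl, which acts on the route to IMP and again between IMP and AMP, was at 16.6 and 28.4 RPKM, a ratio of 1.71. Reads of Gart and Adsl did not come out whole with the gene lengths used here. Intervals from their rounded reads, 1.41 to 1.49 and 1.61 to 1.82, are therefore approximate. The level summed over the 6 genes was 419 RPKM in WT and 484 in T136A, a ratio of 1.16.

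Ppat and Paics, which catalyse steps of the same route, lie head to head on chromosome 5, with GENCODE starts 271 bases apart and their first parts overlapping. Their levels differed 3.40-fold in WT and 3.73-fold in T136A. Overlap covers 6.15% of the exon bases of Ppat and 8.67% of those of Paics. Gart lies 554 bases from Son, a splicing factor gene on the opposite strand, which was at 14.7 RPKM in WT and 11.7 in T136A, so the 2 neighbours differed in direction. Another annotated gene, Gm15964, also covers part of the 19.7% of Gart exon bases that overlap other genes. Whether the reads of such partners were separated by strand is not known.

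Beyond IMP, the abundant Impdh2 and Adss were nearly equal in the libraries, while their scarcer relatives Impdh1 and Adssl1 differed. IMP dehydrogenase makes the first compound on the way to GMP. Its main form in these cells, Impdh2, was at 152 RPKM in WT and 156 in T136A (ratio 1.02, 0.993 to 1.06). The minor form Impdh1 was at 13.0 and 20.97 RPKM, 1.62-fold higher (1.48 to 1.77). Impdh2 shares 39.3% of its 50-base stretches with the pseudogene Impdh2-ps, whereas Impdh1 shares none with another annotated transcript. Gmps, which completes GMP, was at 17.4 and 18.2 RPKM. On the AMP side the main adenylosuccinate synthetase, Adss, was at 40.1 and 40.7 RPKM (ratio 1.01, 0.967 to 1.07). Its relative Adssl1, best known from muscle, was at 6.64 and 4.03 RPKM, 1.65-fold lower (1.34 to 2.03) on 243 and 155 reads. The AMP deaminases return AMP to IMP: Ampd2 was at 8.004 and 12.4 RPKM, with a log2 ratio of 0.57 just inside the fold of 1.5, and Ampd3 at 2.497 and 2.39. Gmpr and Gmpr2, GMP reductases that lead back to IMP, were at 8.24 and 15.8 RPKM and at 22.7 and 34.5.

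**Figure D2:**
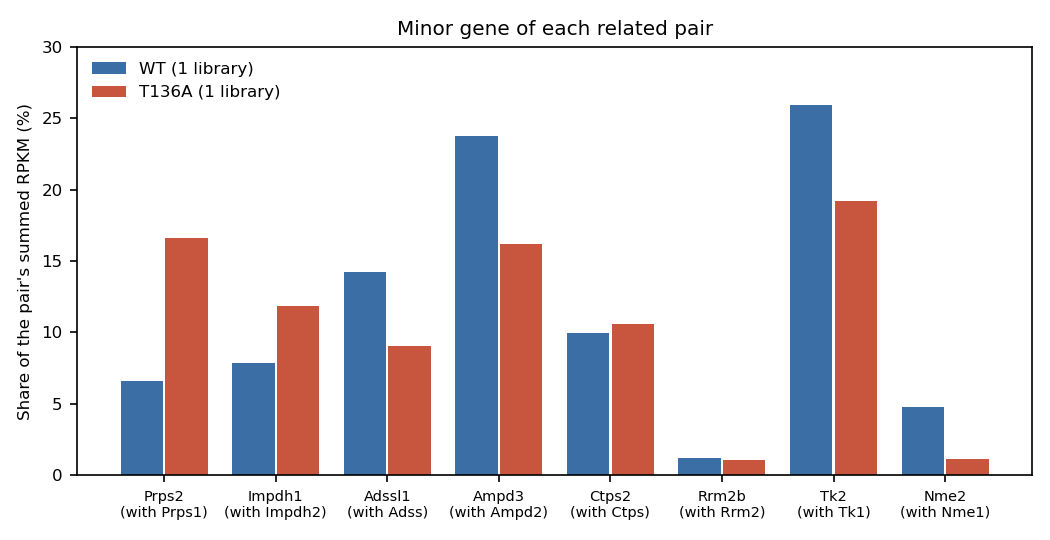
Share of the summed RPKM of each of 8 related gene pairs held by the scarcer gene, in percent, with 1 bar per library (blue WT, red T136A) and no error bars because each genotype had 1 library. The share of Prps2 was 6.61% in WT and 16.6% in T136A and that of Impdh1 7.86% and 11.9%, while the shares of Adssl1, Ampd3, Rrm2b, Tk2 and Nme2 were lower in T136A. The share of Rrm2b hardly differed (1.19% and 1.02%), and that of Nme2 rests on 13 reads in WT and 3 in T136A.

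The 5 pyrimidine genes were all within 1.5-fold. Cad, which carries out the opening steps in the cytosol, was at 31.0 RPKM in WT and 33.5 in T136A, and Dhodh, the mitochondrial enzyme of the route, at 9.48 and 8.58. Umps, which joins the ring to PRPP and yields UMP, had the largest ratio of the group, with 51.3 and 69.8 RPKM, 1.36-fold higher (1.299 to 1.42). The CTP synthases Ctps (42.1 and 39.9 RPKM) and Ctps2 (4.64 and 4.73) had counting intervals that held 1. Over all routes, 31 of the measured genes had whole reads in both libraries. The counting interval of the fold lay above 1 for 11 of them (35.5%) and below 1 for 7 (22.6%), beside 31.7% and 36.9% of 10771 measured genes with whole reads.

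**Figure D3:**
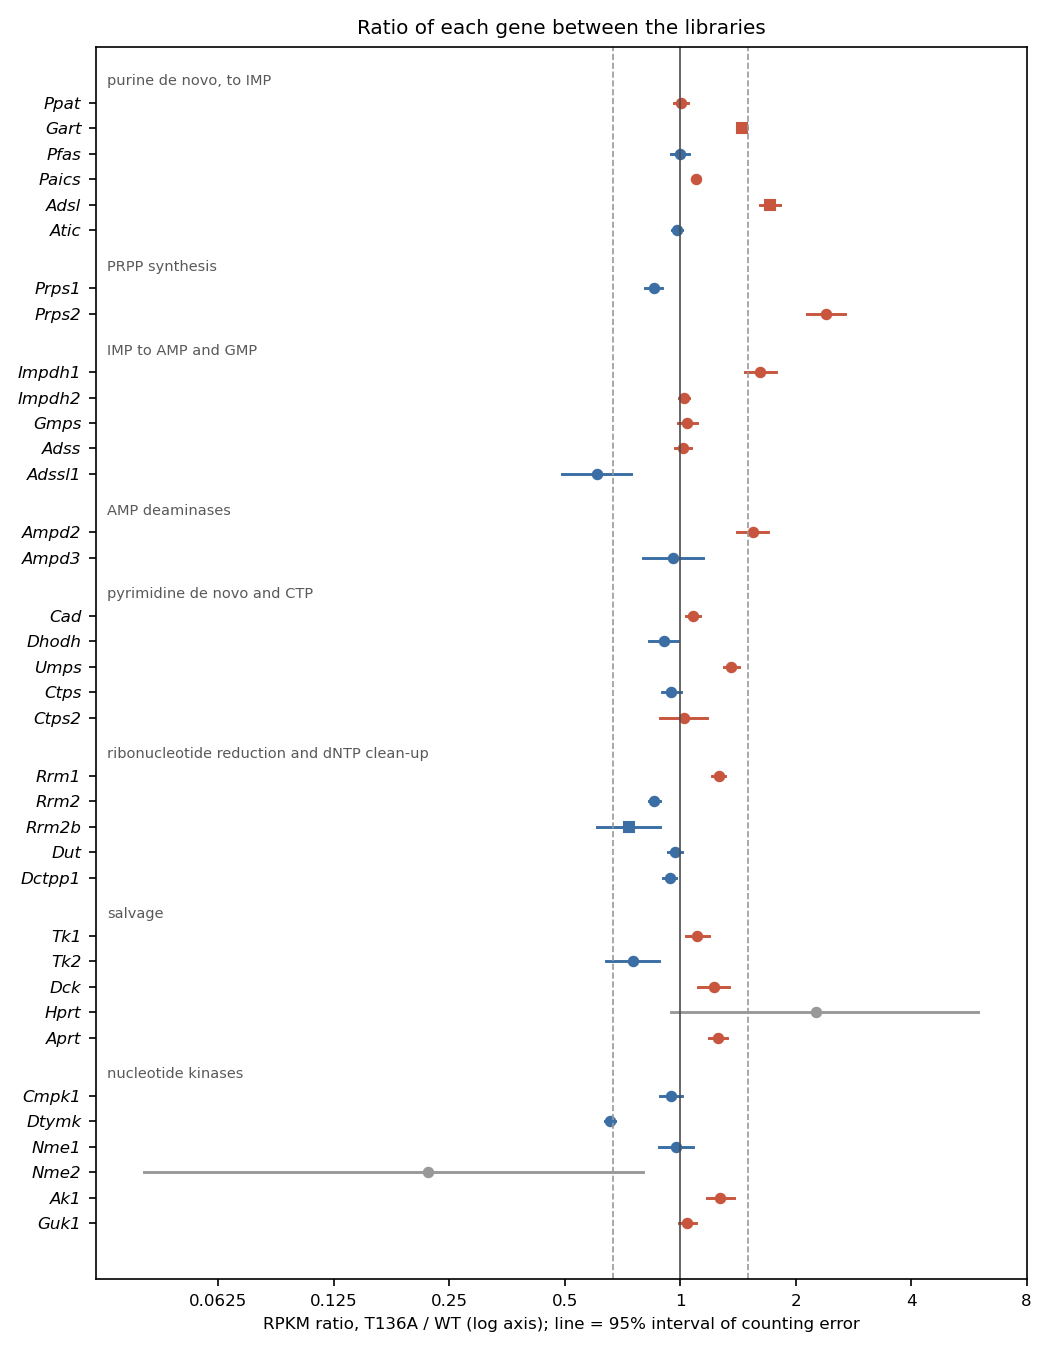
Ratio of T136A to WT RPKM for each gene on a log axis, with the 95% interval of counting error as a line, red for ratios above 1, blue for those at or below 1 and grey for genes under 1 RPKM in both libraries. Squares mark genes whose reads were rounded, and dashed lines mark 1.5-fold in plain RPKM; Prps2 lies farthest to the right of the measured genes at 2.40, and Adssl1 farthest to the left at 0.607.

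Among the genes of deoxyribonucleotide supply, the ribonucleotide reductase subunits differed in direction. The large subunit Rrm1 was at 22.9 RPKM in WT and 28.8 in T136A, 1.26-fold higher (1.21 to 1.31). The small subunit Rrm2, which is made in S phase, was at 132 and 113 RPKM, 1.17-fold lower (1.13 to 1.21). Rrm2b, the small subunit that p53 induces, was scarce, at 1.59 and 1.17 RPKM, and Trp53 itself was at 176 and 215. Dut, which destroys dUTP, was at 96.9 and 94.1 RPKM. Dctpp1, which hydrolyses dCTP and its modified forms, was the highest of the 36 genes in RPKM, at 393 and 369, above 99.0% of measured genes in WT. This rank rests on its short exon length of 676 bases, with 4653 reads in WT beside 10720 for Paics. As a reference for S phase, 19 measured replication genes had a median log2 ratio of -0.16, beside -0.03 over all measured genes. Below 0 were 15 of the 19, beside 6479 of all 12320 measured genes. Past 1.5-fold were 0 of the 19, beside 10.4% higher and 11.3% lower among all measured genes. Gins2 (-0.48), Mcm2 (-0.45) and Cdt1 (-0.42) were the lowest of the 19 and Cdc6 (0.19), Pcna (0.11) and Ccne2 (0.06) the highest.

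Thymidylate kinase, Dtymk, which phosphorylates dTMP on the way to dTTP, was the other gene at least 1.5-fold lower. It was at 228 RPKM in WT and 150 in T136A, from 10522 and 7266 reads, 1.52-fold lower (1.48 to 1.57). Its log2 ratio of -0.60 lay close to the threshold and was inside it under 3 of 4 other scalings of the libraries (-0.45 with upper-quartile scaling). Tyms, which makes dTMP from dUMP and is not one of the 36, was also lower, at 37.7 and 24.0 RPKM (ratio 0.637, 0.606 to 0.669). Tk1, which salvages thymidine in the cytosol, was slightly higher instead, at 16.5 and 18.2 RPKM (1.11-fold, 1.03 to 1.19). The thymidine branch was picked out after its values were seen.

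In salvage, the adenine and hypoxanthine enzymes stood far apart in level. Aprt, which attaches adenine to PRPP, was at 78.7 RPKM in WT and 98.8 in T136A, 1.26-fold higher (1.19 to 1.33). Hprt, which does the same for hypoxanthine and guanine and is expressed in nearly all cell types, was at 0.355 and 0.801 RPKM. These are 8 and 19 reads, at percentiles 1.27 and 3.09 of the measured genes. With so few reads the ratio of 2.26 had an interval from 0.945 to 5.97, and no difference between the libraries was detectable. Hprt shares 0% of its 50-base stretches with other annotated transcripts and 0% of its exon bases with other genes. Its neighbours within 200 kb on chromosome X that were listed were Phf6 (5.63 and 4.74 RPKM), Ccdc160 (13.8 and 9.09) and Plac1 (0 and 0.0390). As background, E14TG2a, a widely used derivative of the E14 line, is known for a deletion in Hprt; the labels do not say whether E14.1 carries it, and gene-level values cannot show it.

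The deoxynucleoside kinases split by compartment. In the cytosol, Dck, which accepts deoxycytidine, was at 12.1 RPKM in WT and 14.9 in T136A, 1.22-fold higher (1.12 to 1.34). The mitochondrial Tk2 was at 5.77 and 4.34 RPKM, 1.33-fold lower (1.14 to 1.56). Outside the 36 genes, the mitochondrial kinase Dguok was lower too, at 6.94 and 3.85 RPKM (ratio 0.556, 0.483 to 0.638). Nt5m, a mitochondrial nucleotidase, was at 5.52 and 1.84 RPKM (ratio 0.334, 0.267 to 0.414). These 3 mitochondrial genes were set side by side after their values were seen.

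Of the 6 kinases that raise monophosphates and diphosphates, 3 had counting intervals that held 1 (Guk1, Cmpk1 and Nme1) and 3 did not (Dtymk, above, Ak1 and Nme2). Their summed level was 382 RPKM in WT and 311 in T136A, a ratio of 0.814, in which Dtymk was the most abundant. Guk1, which acts on GMP, was at 87.6 RPKM in WT and 91.3 in T136A, and Cmpk1, which acts on UMP and CMP, at 29.9 and 28.2. Ak1, which interconverts AMP, ADP and ATP, was at 22.6 and 28.8 RPKM, 1.27-fold higher (1.17 to 1.38). The nucleoside diphosphate kinase Nme1 was at 12.6 and 12.3 RPKM. Nme2 had only 13 reads in WT and 3 in T136A, at 0.634 and 0.139 RPKM, a ratio of 0.220 (0.0401 to 0.799). Its values are uncertain, since 48.9% of its exon bases are also annotated to the read-through gene Gm20390, which covers 12.5% of those of Nme1.

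**Figure D4:**
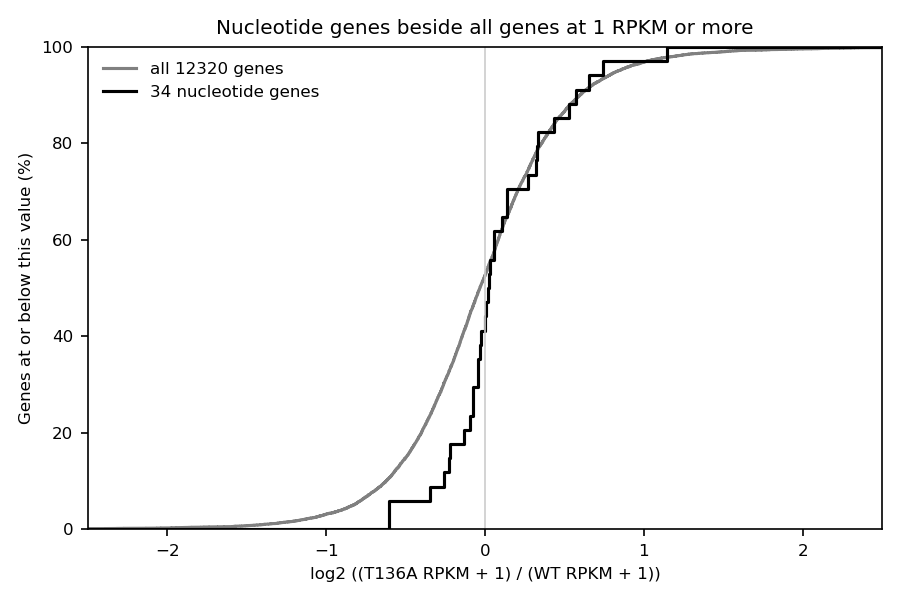
Cumulative share of genes, in percent, at or below each log2 ratio of T136A to WT, for the 34 measured nucleotide genes (black) and all 12320 measured genes (grey). The black curve starts at -0.60 and is the steeper near 0, where 14 of the 34 genes (41.2%) lie within 0.1 of 0, beside 17.6% of all measured genes. These shares hold for the values as deposited and were not counted under the other scalings. The nucleotide genes were also the more highly expressed set: 31 of the 34 reached 5 RPKM in at least 1 library, beside 7603 of all 12320. Ratios from few reads scatter more, and no comparison at like levels was made, so the steeper curve is no result about the nucleotide genes. Upper-quartile scaling moved the median to 0.16 for the nucleotide genes and 0.10 for all measured genes.

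Of 61 further genes of nucleotide metabolism, 59 were listed and 43 measured. Their median log2 ratio was -0.04, with 8 genes at least 1.5-fold higher (18.6%, beside 10.4% of all measured genes) and 9 lower (20.9%, beside 11.3%), and 26 in between. Adk (log2 ratio 0.99), Ada (0.72) and the nucleotidase Nt5c (0.67) were the highest of the salvage and breakdown list, and Nt5m (-1.20), Adal (-0.77) and Uck2 (-0.62) the lowest. Uck2, the main uridine-cytidine kinase by level here, was at 85.9 RPKM in WT and 55.5 in T136A, and its relative Uck1 at 21.8 and 14.01. Among other nucleotide kinases, the mitochondrial Ak4 was at 10.5 and 22.3 RPKM, Ak7 at 2.42 and 3.59, Ak3 at 13.6 and 7.98, Ak8 at 2.68 and 1.36 and Nme6 at 22.8 and 15.9. Adk, Gmpr2 and Lacc1 lie on chromosome 14, whose 453 measured genes had a median log2 ratio of 0.32, while 0 of the 36 genes lie there.

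Larger differences were found among suppliers of one-carbon units. Of 12 measured folate genes, which serve the synthesis of purines and dTMP, 4 were at least 2-fold lower in T136A and 0 higher. The shares among all measured genes were 3.1% lower and 3.13% higher. Aldh1l2, among the 4, passed 1 RPKM through WT alone (1.55 and 0.225), so the minimum itself favoured its count as lower. Mthfd2 and Shmt2 had log2 ratios of -1.87 and -1.64. The cytosolic enzymes Shmt1 (53.5 and 84.3 RPKM) and Mthfd1 (103 and 130), which feed Gart, Atic and Tyms, were among the highest, with Fpgs (20.2 and 27.4). In the pentose phosphate route, which yields the ribose of PRPP, Pgd was at 22.4 and 40.9 RPKM, Rpia at 0.970 and 1.73, and Tktl1 passed 1 RPKM through T136A alone (0.0693 and 1.32). The other measured genes of that list lay between log2 ratios of -0.20 and 0.24.

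MYC, ATF4 and E2F proteins are known to act on genes of these routes. Myc was 7.82-fold higher in T136A (6.39 to 9.63), at 2.27 RPKM in WT and 17.7 in T136A, but Mycn was the more abundant in both, at 78.3 and 59.6. Summed with Mycl, at 1.82 and 2.89 RPKM, the family stood at 82.4 RPKM in WT and 80.2 in T136A. Atf4 was at 306 and 105 RPKM, a log2 ratio of -1.53, E2f1 at 18.1 and 19.8, E2f2 at 3.25 and 5.11, and Hif1a at 19.1 and 13.7. Whether any of these had a part in the values of the nucleotide genes was not tested.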

How the data were processed

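Messenger RNA was measured by RNA-seq in 1 library for each form of AHCY. The authors deposited 1 value per Ensembl gene and library, read here as RPKM; the unit was settled from the values, since value times exon length times 1 constant per library was whole within 0.01 for 89.9% (WT) and 90.0% (T136A) of positive values. Per the submitters' processing notes, CASAVA 1.8 and mm9 were used, with no role stated; the aligner, the counting program and its strand setting are not given in these notes or the labels. Exon lengths and gene coordinates came from GENCODE M21 (GRCm38), another build than mm9. The constants gave implied totals of 17506154 and 18396840 reads.

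Symbols matched 25696 of 25749 identifiers; where identifiers shared a symbol (9 cases) the one with the higher total was kept. Genes at 1 RPKM or more in at least 1 library were measured. Counts past 2-fold and 1.5-fold used log2 ratios with 1 RPKM added, and printed folds are plain RPKM ratios. Whole reads were recovered for 33 of the 36 genes and rounded for the other 3. Their 95% intervals are exact conditional binomial (Clopper-Pearson), cover counting error only, and treat reads as independent molecules although no molecular identifiers were used. Shared 50-base stretches were counted on both strands of GENCODE transcripts; the read length is not given.

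The members and lists were chosen with earlier results of these data known. Named genes were all 36, the 3 highest and 3 lowest of each further pathway list, and relatives of the 36; any other named gene was picked with its values known, and a few genes under the rule are not reported here. The steps were run on simulated reads with known changes, counting error alone and exact gene lengths. That run checks the calculation only and not the spread between cultures or libraries. Python 3.11.15, pandas 2.3.3, scipy 1.17.1 and matplotlib 3.10.9 were used. Alternatives were the added constant, the minimum level, 4 scalings, summed identifiers and removal of chromosome 14.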

Additional observations from a re-analysis of the deposited data

How the results depend on the processing

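Across 11 alternatives, 46 of 55 values of the 4 counts and the median were kept within their limit (1.5 times for counts, the 95% order-statistic interval of -0.05 to 0.14 for the median). With 5 added in place of 1, 0 genes were at least 2-fold higher (Prps2 at 0.84) and 1, Dtymk, was at least 1.5-fold lower. Adssl1 and Dtymk lay close to the 1.5-fold line: 0 genes were lower by that fold with TMM, median-of-ratios or upper-quartile scaling and 1, Dtymk, with quantile normalization. At least 1.5-fold higher were 5 genes with median-of-ratios and 6 with upper-quartile scaling, in place of 3. Upper-quartile scaling put the median of the nucleotide genes at 0.16 and that of all measured genes at 0.10 in place of -0.03, and 15.1% of measured genes were then 1.5-fold higher and 7.66% lower. The shift is the scaling's own, as it multiplies every gene alike. The share of nucleotide genes 1.5-fold higher was above that of all measured genes under the 4 scalings, with 5 added and with no minimum, and below it under the other 5 alternatives and as reported; the share lower was below it under all 11. Of the single genes, 10 with log2 ratios near 0 changed sign in at least 1 of 7 alternatives, and none of the 5 past 1.5-fold did. The ratios of Hprt (8 reads in WT and 19 in T136A) and Nme2 (13 and 3) rest on few reads. No paired analysis was possible because each genotype had 1 library. Leaving out a replicate was not possible for the same reason.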
